A study of Mus musculus with 37 samples.

Results

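Iron handling was followed in 9 genes through a survey of ribosome-bound RNA from mouse lymph nodes and spleen. They were taken by symbol from the deposited table of 56351 genes: the ferritin chains Ftl1 and Fth1, the haem-splitting enzyme Hmox1, the iron exporter Slc40a1, the phagosomal metal transporter Slc11a1, transferrin (Trf) and its receptor (Tfrc), and Spic and Vcam1, which belong to the program of red pulp macrophages. Each symbol matched 1 row, and all 9 genes passed the filter on low counts in both spleen comparisons. In RiboTag mice, Cre switches on a haemagglutinin-tagged copy of the ribosomal protein Rpl22, so that an antibody to the tag recovers the ribosomes of the recombined cells together with their mRNA. Every animal, with no untagged or wild-type group, had the genotype CD169 Cre KI/KI with Rpl22HA homozygous. No age, sex, treatment or time point is given. CD169 is the product of Siglec1, a lectin of macrophages in lymph node sinuses and the splenic marginal zone, and the labels name the cells as CD169 macrophages. The groups were 11 node sites and spleen with 3 libraries each, plus 1 isotype control pull-down from jejunal node. The tissue field reads lymph node for all of them, so spleen was identified from the sample titles. Nothing in the labels says whether the libraries of a site came from separate animals, and p-values measure the spread between these libraries.

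Red pulp macrophages of the spleen take up aged red cells, split their haem and store part of the iron in ferritin. They return the rest to plasma through ferroportin, the product of Slc40a1. The labels name CD169 macrophages, and whether the spleen pull-downs held red pulp macrophages was not tested. Cells take up plasma iron as transferrin through the transferrin receptor, which is abundant on red cell precursors and dividing cells. Iron regulatory proteins bind a hairpin called the iron-responsive element. Bound near the start of ferritin and ferroportin mRNA, they keep ribosomes off, and bound in the 3′ UTR of Tfrc mRNA, they protect it from decay. A pull-down of ribosomes therefore reads these mRNAs after the step at which such control acts.

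The elements are shown because they divide the 9 genes into those with a start-side hairpin, 1 with a row of tail-side hairpins, and those with none. A search of GENCODE M21 mouse transcripts looked on the sense strand for a 6-base loop spelled CAGAGN or CAGTGN, with the last base not G. It required 5 paired bases on either side, G to T pairs included, and a C just before the left arm. Matches were found in 4 of the 9 genes. With at least 4 pairs also required in the lower stem, the same 4 genes matched, against 74 of 21877 genes with a protein-coding transcript (0.338%). A match describes letters and is not a measured binding site. Each is printed 5′ to 3′ as DNA letters over 29 bases, with the loop in capitals.
Ftl1, 5′ UTR, bases 78 to 106 of its transcript: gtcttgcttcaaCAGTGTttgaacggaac
Fth1, 5′ UTR, bases 87 to 115 of its transcript: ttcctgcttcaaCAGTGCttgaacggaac
Slc40a1, 5′ UTR, bases 90 to 118 of its transcript: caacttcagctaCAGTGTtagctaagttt
Tfrc, 3′ UTR, from base 3256 of its transcript: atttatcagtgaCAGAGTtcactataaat
Tfrc, 3′ UTR, from base 3315 of its transcript: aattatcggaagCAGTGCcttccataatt
Tfrc, 3′ UTR, from base 3694 of its transcript: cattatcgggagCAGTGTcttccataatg
Tfrc, 3′ UTR, from base 3759 of its transcript: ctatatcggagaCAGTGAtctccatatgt
Tfrc, 3′ UTR, from base 3806 of its transcript: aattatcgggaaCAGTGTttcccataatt
The 3 start-side elements share the loop letters CAGTG, followed by T in Ftl1 and Slc40a1 and by C in Fth1. Hmox1, Slc11a1, Spic, Trf and Vcam1 had no match of this form in any protein-coding transcript.

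Depth set which sites could be compared. The 18 libraries of 6 node sites (ileal, ceco-colonic, inguinal, super cervical, deep cervical and mediastinal) held 1283757 to 69139450 counts, and the spleen libraries held 2434063, 9619717 and 1165387. The 15 libraries of the other 5 sites (duodenal, jejunal, liver, celiac and iliac) held 221911 to 1950752, with 15.5% to 85.6% of counts on 3 features that carry ribosomal sequence. Those features took 25.4%, 5.55% and 42.7% of the spleen libraries and 1.97% to 27.3% of the 18 node libraries. Levels are given as counts per 1000000 of the library total (CPM). A count of 3 corresponds to 1.23, 0.312 and 2.57 CPM in the 3 spleen libraries, a floor that covers counting error only. Siglec1 itself reached at most 0.273 CPM in spleen and 3.33 CPM in the 18 node libraries, and was too low to test. The CD169 Cre KI/KI genotype places Cre at this gene, so its counts are not read as macrophage content. Marco, a scavenger receptor listed here with marginal zone and sinus macrophages, ran from 117.5 to 1908 CPM in spleen and from 646.5 to 7820 in the nodes.

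Spleen held far less ribosome-bound Ftl1 than the nodes, and less Hmox1 and Trf, while Tfrc and Slc40a1 were higher. Fth1, Slc11a1, Spic and Vcam1 did not pass the test. Fold changes come from edgeR with TMM scaling, each as spleen minus the mean of the 6 site means on the log2 scale, so that every site weighs the same, with a call at an adjusted p under 0.05. Of the 9 genes, 3 were lower and 2 higher, where 34.4% of all 16878 tested genes were lower and 27.1% were higher, so neither count stands out from the background. The median over the 9 genes was -0.70 and over all genes -0.35. In pull-downs from whole tissue, fewer tagged cells and less mRNA per cell cannot be told apart.

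**Figure D1:**
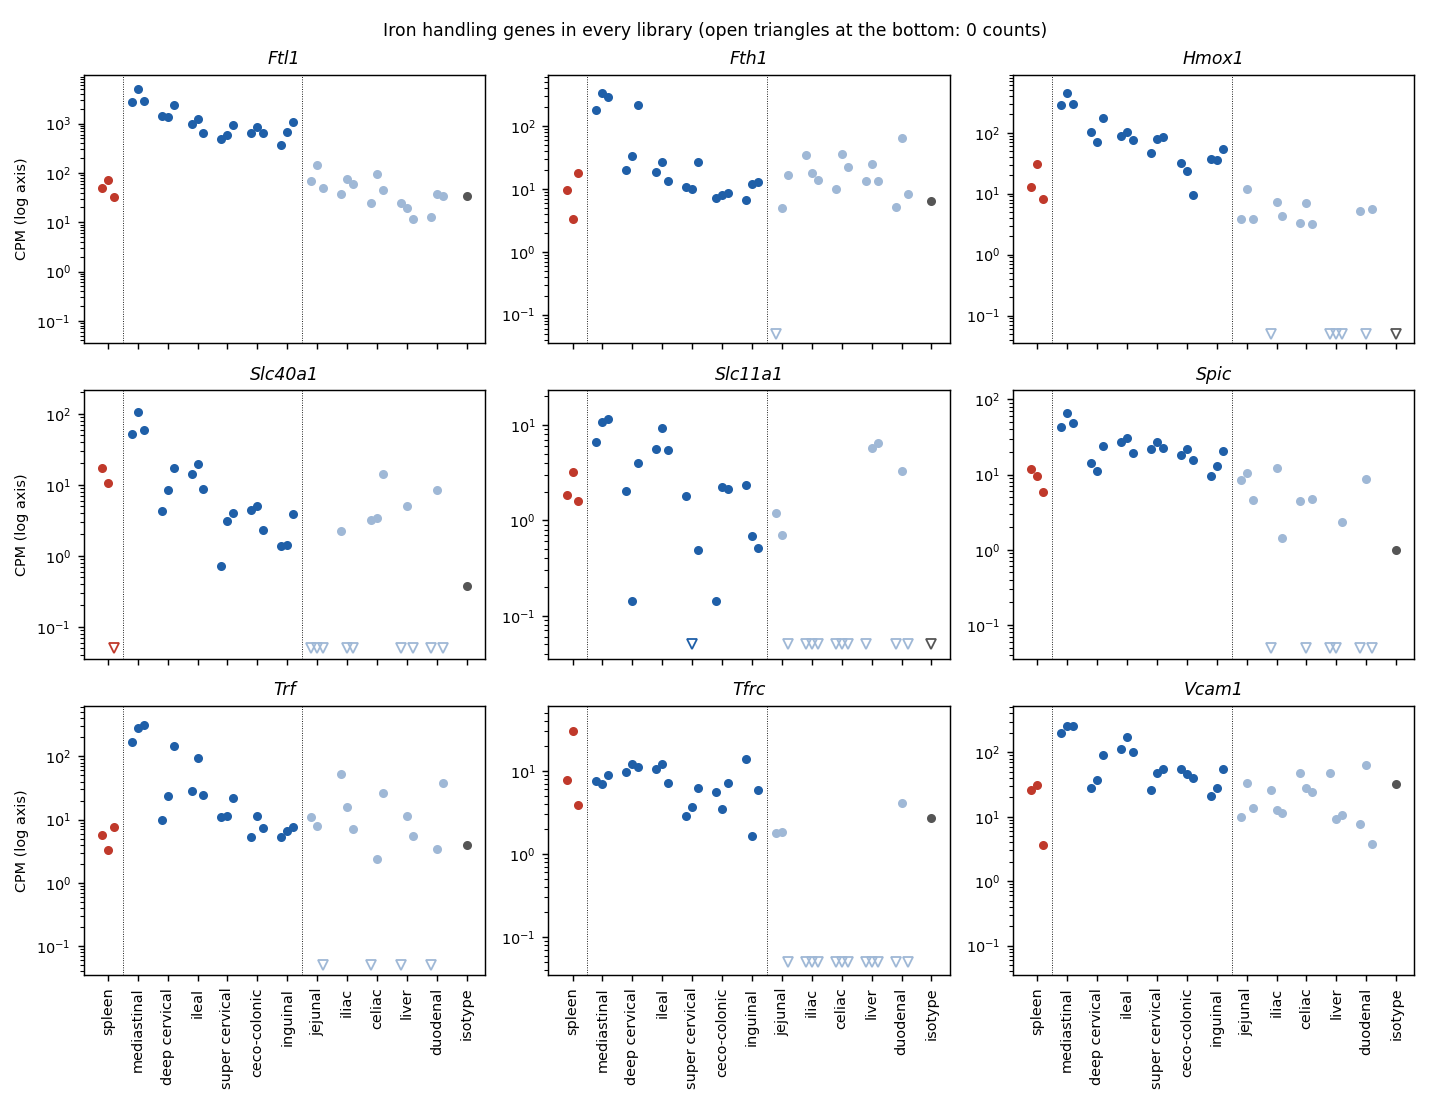
CPM (log axis, plain library totals) of the 9 genes in every library, with spleen in red, the 6 deeply sequenced node sites in dark blue, the 5 shallow sites in pale blue and the isotype control in grey. Each point is 1 library and open triangles mark 0 counts. All 18 dark blue points for Ftl1 lie above the 3 spleen points. For Tfrc none lies above all spleen points and 4 lie below them all.

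Ftl1, the light chain that helps ferritin form its iron core, had 49.6, 72.9 and 32.6 CPM in the 3 spleen libraries. The 18 node libraries ran from 365.1 to 4957 CPM with a median of 968.2. Every node library was therefore above every spleen library. The difference was -3.48 ± 0.40 (SE), or 11.2-fold lower in spleen (adjusted p = 1.501e-07). Under 29 other settings and left-out libraries it stayed between -4.43 and -3.34 and was called each time, with adjusted p from 3.953e-34 to 7.763e-06. The isotype library held 34.3 CPM of Ftl1, inside the spleen range on plain totals. With the ribosomal features left out of the totals it held 36.7 CPM, below the spleen libraries at 66.4, 77.1 and 56.8. That control came from jejunal node, and no isotype control of spleen was analysed here.

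Fth1, the heavy chain that oxidises iron on its way into ferritin, had 9.81, 3.34 and 18.1 CPM in spleen, on 23.9, 32.1 and 21.1 counts. Node libraries ran from 6.63 to 333.2 CPM with a median of 16.1. Of these libraries 9 of 18 lay above every spleen library and none lay below all of them. The difference of -0.70 ± 0.51 did not pass (adjusted p = 0.2433). It did pass with no filter on low counts, at -1.13 (adjusted p = 0.03099), and with plain library totals in place of TMM, at -1.64 (adjusted p = 0.01838).

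The choice of scaling matters for all 9 genes. TMM factors were 0.51 to 0.63 in the spleen libraries and 0.707 to 1.495 in the nodes, which raises spleen levels relative to plain totals. Counts of node libraries above or below every spleen library are on plain totals throughout. The share of all genes with such counts is not given, so they are descriptions only. On TMM-adjusted totals the lowest node library for Ftl1 (inguinal replicate 1, 413.7 CPM) still exceeded the highest spleen library (replicate 2, 120.3 CPM). With plain totals, an alternative chosen after seeing the data, the median of all genes moved from -0.35 to -1.29. The calls over all genes moved from 4582 higher and 5799 lower to 2257 higher and 8303 lower. Among the 9 genes plain totals gave 1 higher and 6 lower. Relative to the median of all genes the 9 values shifted by 0.10 or less between these scalings, so that distance is given below where a direction turns on it. Ftl1 stood at -3.14 on that measure with either scaling, and Fth1 at -0.35.

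**Figure D2:**
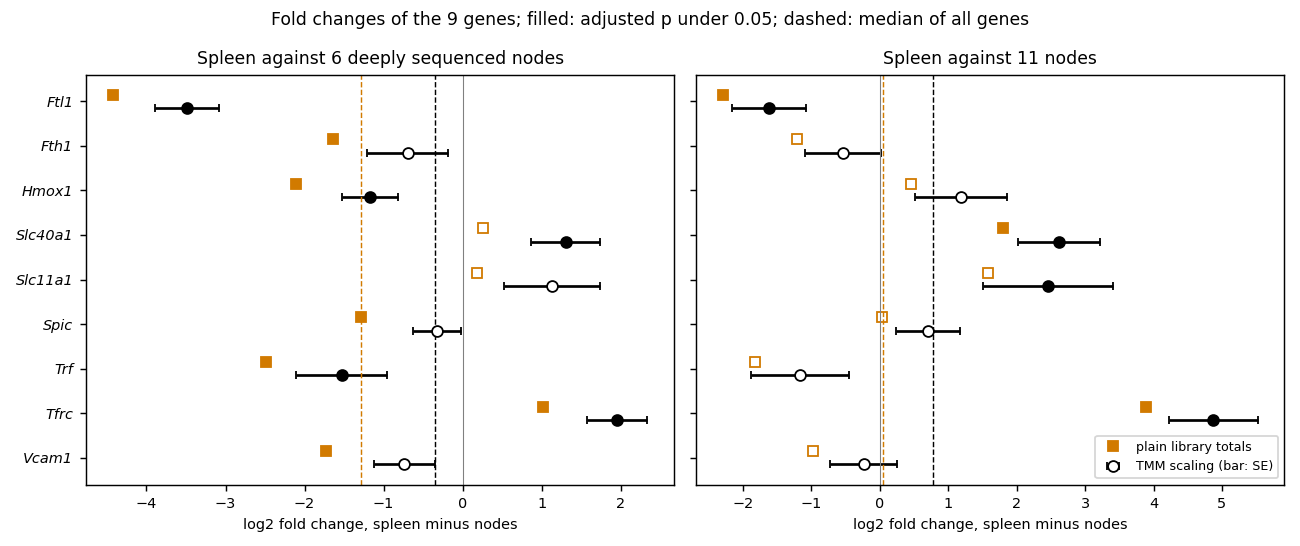
Log2 fold change of each gene, spleen minus nodes, for the 6 deeply sequenced sites (left) and for all 11 sites (right). Black circles with SE bars use TMM scaling and orange squares plain library totals, filled where the adjusted p is under 0.05, and dashed lines mark the median of all genes in the same colours. In the left panel Ftl1 lies lowest at -3.48 and Tfrc highest at 1.96.

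The ratio of the ferritin chains needs no scaling between libraries. The log2 ratio of Ftl1 to Fth1 counts, with 0.5 added to each, was 2.31, 4.43 and 0.83 in the spleen libraries and averaged 5.37 ± 1.04 (SD, n = 18) in the node libraries. The mean difference was -2.85 (two-sided exact permutation test, p = 0.007519, adjusted over 2 ratios 0.01504). The groups overlapped, because mediastinal libraries reached down to 3.31 and deep cervical replicate 3 to 3.50, while spleen replicate 2 stood at 4.43. Set against the 6 site means rather than 18 libraries, the same test gave an adjusted p of 0.09524, and without spleen replicate 1 or 3 it gave 0.1053 and 0.05263. The ratio in the isotype library was 2.41. Per kilobase of transcript, on plain totals, spleen held 53.4 CPM of Ftl1 and 11.2 of Fth1, and the 18 node libraries averaged 1439 and 74.2.

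Ferritin has many processed copies, among which the authors' counting may have split reads. Of the 15 other rows whose symbol begins with Ftl or Fth, Ftl1-ps1 alone was above 1 CPM on average, at 21.7 CPM in the 18 node libraries and 3.77 in spleen. Its mean, like that of Ftl1, was thus lower in spleen.

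Hmox1, haem oxygenase, splits haem into iron, biliverdin and carbon monoxide. Spleen libraries held 12.9, 30.9 and 8.16 CPM, the last on 9.51 counts. Node libraries ran from 9.35 to 451.6 CPM with a median of 78.6, and on plain totals 16 of 18 exceeded every spleen library. The 2 that did not were ceco-colonic. On TMM-adjusted totals the inguinal libraries (41.5, 44.0 and 47.3 CPM) were also below spleen replicate 2 (50.98 CPM). Hmox1 was lower in spleen by -1.17 ± 0.36 (adjusted p = 0.006616) and was called under all 29 other settings, between -2.10 and -0.98, with adjusted p from 0.0001682 to 0.03088. Its distance below the median of all genes was -0.82.

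Slc40a1, ferroportin, had 17.4, 10.5 and 0 CPM in spleen, where 0 counts in the third library allow up to 2.57 CPM. Node libraries ran from 0.725 to 107.0 CPM with a median of 4.76. The 5 node libraries above every spleen library on plain totals were the 3 mediastinal ones, ileal replicate 2 and deep cervical replicate 3. None lay below all spleen libraries. On TMM-adjusted totals ileal replicate 2 (14.5 CPM) and deep cervical replicate 3 (12.2 CPM) were below spleen replicate 1 (33.9 CPM). The difference was +1.30 ± 0.44 (adjusted p = 0.01284) although the plain mean was lower in spleen, at 9.28 against 17.6 CPM. With TMM-adjusted totals the means were 17.1 CPM in spleen and 13.1 in the nodes. The call was lost without spleen replicate 1 (0.46, adjusted p = 0.4687) and without replicate 2 (1.35, adjusted p = 0.0527), with limma voom (0.61, adjusted p = 0.409) and with plain totals (0.26, adjusted p = 0.6792). It stood 1.65 above the median of all genes with TMM and 1.55 with plain totals.

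Trf encodes transferrin, the plasma carrier of iron. Spleen held 5.75, 3.29 and 7.61 CPM, and the nodes 5.27 to 310.7 with a median of 16.5. On plain totals 14 of 18 node libraries were above every spleen library. The 4 that overlapped were ceco-colonic and inguinal. On TMM-adjusted totals deep cervical replicate 1 (9.65 CPM) and super cervical replicate 2 (12.18 CPM) were also below spleen replicate 3 (12.29 CPM). Trf was lower in spleen by -1.53 ± 0.58 (adjusted p = 0.02486), a call that was lost without spleen replicate 2 (-1.11, adjusted p = 0.1876) and with DESeq2's size factors in edgeR (-1.39, adjusted p = 0.06419).

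Tfrc, the transferrin receptor, went the other way. Spleen libraries held 7.69, 29.9 and 3.83 CPM, and the 18 node libraries 1.66 to 13.8 with a median of 7.13. No node library was above all spleen libraries, and 4 were below all of them. The highest value of all 37 libraries was that of spleen replicate 2, on 287.3 counts. Tfrc was higher in spleen by 1.96 ± 0.38 (adjusted p = 0.0001157). Without spleen replicate 2 the value was 0.76 and the call was lost (adjusted p = 0.2231).

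Spleen replicate 2 also had the highest sums of erythroid, dividing-cell and neutrophil genes among the spleen libraries. These are on plain totals, and its share of ribosomal features was the lowest of these libraries. The summed level of 13 erythroid genes, headed by the globins, was 6124, 47100 and 10380 CPM in spleen replicates 1 to 3. The sum over 8 genes of dividing cells was 354.6, 1453 and 411.7 CPM, and over 9 neutrophil genes 22.1, 222.8 and 43.2 CPM. Endothelial and monocyte sums in spleen varied less, at 236.4 to 287.5 and 22.9 to 34.8 CPM. The marginal zone and sinus macrophage sum ran from 142.8 to 2028 CPM. Deep cervical nodes had erythroid sums of 6951 to 7612 CPM, inside the range of spleen, with 9.70 to 11.95 CPM of Tfrc. The other 15 node libraries had 148.9 to 1957 CPM of erythroid genes. The part of other cells in the Tfrc difference was not tested. The log2 ratio of Tfrc to Fth1 was -0.34, 3.14 and -2.12 in spleen and averaged -1.94 ± 1.81 (SD, n = 18) in the nodes, a difference of 2.17 that did not pass (two-sided exact permutation test, p = 0.1023, adjusted 0.1023).

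**Figure D3:**
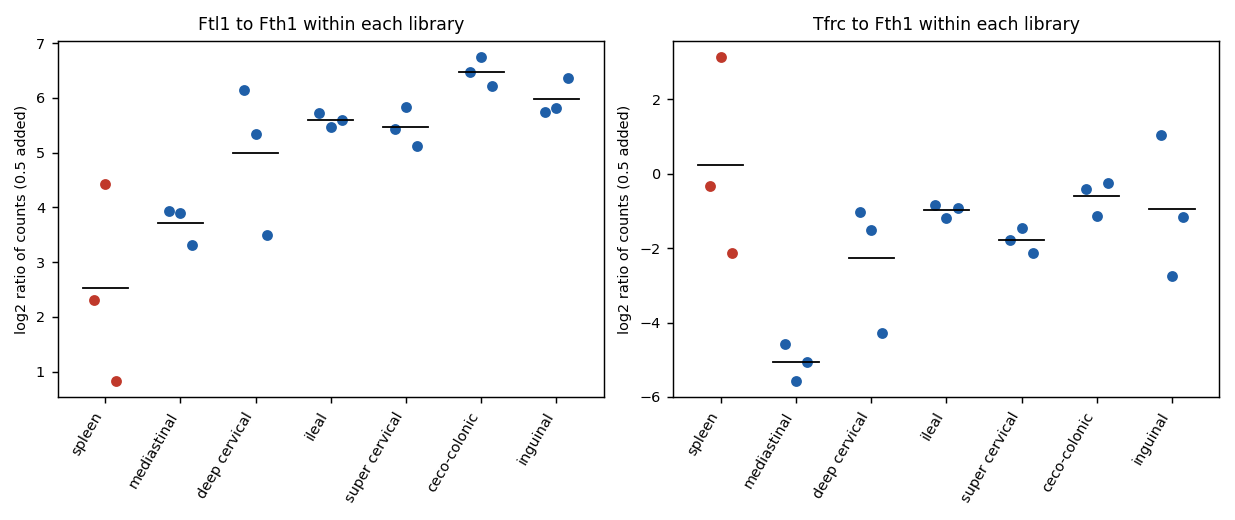
Log2 ratio of counts within each library (0.5 added) for Ftl1 to Fth1 (left) and Tfrc to Fth1 (right), with spleen in red and the 6 node sites in blue. Points are libraries and bars are site means. The mediastinal node has the lowest node mean in both panels, at 3.71 and -5.07.

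Slc11a1 moves divalent metals out of phagosomes. Its levels were low everywhere, with 1.85, 3.25 and 1.59 CPM in spleen on 4.495, 31.2 and 1.85 counts, and 0 to 11.5 CPM in the nodes. There were 7 node libraries above and 6 below all spleen libraries. The difference of 1.13 ± 0.61 did not pass (adjusted p = 0.1085). At these counts a difference was not detectable in the shallow sites, where all 15 libraries had under 3 counts.

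Spic, a transcription factor that red pulp macrophages need, had 11.9, 9.69 and 5.79 CPM in spleen. Node libraries ran from 9.46 to 65.8 CPM with a median of 21.9, and on plain totals 16 of 18 were above every spleen library. On TMM-adjusted totals far more overlapped. Spleen replicate 1, at 23.4 CPM, was then above all ileal libraries (20.7, 22.05 and 18.7 CPM). The difference was -0.32 ± 0.31 with TMM (adjusted p = 0.3667) and -1.28 with plain totals (adjusted p = 0.003008). Spic lay 0.02 and 0.01 from the median of all genes in the 2 fits, so its place relative to other genes was that of the typical gene.

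Vcam1 is an adhesion molecule of red pulp macrophages, endothelium and stroma. Spleen libraries held 25.8, 30.9 and 3.64 CPM, and node libraries 20.7 to 259.0 with a median of 54.5. On plain totals 14 of 18 node libraries exceeded every spleen library. On TMM-adjusted totals the super cervical libraries (36.5, 50.5 and 44.3 CPM) were all below spleen replicate 2 (50.98 CPM). The difference of -0.74 ± 0.38 did not pass (adjusted p = 0.09586). It passed with plain totals (-1.73, adjusted p = 0.002271), with no filter (-1.07, adjusted p = 0.02597) and without deep cervical replicate 1 (-0.90, adjusted p = 0.0494).

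Among the nodes, 8 of the 9 genes differed between the 6 deeply sequenced sites (edgeR F test), as did 60.9% of all genes tested. Tfrc was the exception (adjusted p = 0.6576), with site means from 4.21 to 10.9 CPM and overlapping ranges between each site and the next. The others had adjusted p from 1.377e-06 for Fth1 to 0.009246 for Spic, and the Spic call was lost without mediastinal replicate 2 (adjusted p = 0.07314). On plain totals the mediastinal node had the highest mean for all 8. The share of all genes with their highest mean there is not given, so this is not read as a trait of these genes. Mediastinal TMM factors were 1.495, 1.41 and 1.456, which lowers its levels relative to plain totals. On TMM-adjusted totals mediastinal replicate 1 held 28.7 CPM of Spic and super cervical replicate 1 held 30.95.

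Mediastinal Ftl1 was 3548 ± 1224 CPM (SD, n = 3), with 2739, 4957 and 2948 in its libraries. The deep cervical node came next with 1743 ± 590 CPM, the lowest mediastinal library standing above its highest. Ileal, ceco-colonic, inguinal and super cervical nodes followed at 956.1, 731.2, 708.7 and 669.4 CPM, each overlapping the next. Spleen stood apart at the end of this order, at 51.7 ± 20.2 CPM.

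Mediastinal Fth1 was 269.5 ± 80.4 CPM, and ileal Fth1 19.9 ± 7.01. The deep cervical libraries spread over 19.9, 34.0 and 214.8 CPM, so the site overlapped both neighbours. The ceco-colonic node, at 7.95 ± 0.661 CPM, had the lowest mean of the 6 sites, and on plain totals it was below that of spleen, at 10.4 CPM. Trf was 253.3 ± 75.7 CPM in the mediastinal node, apart from the deep cervical libraries at 10.02, 23.3 and 147.2 CPM. Fth1 and Trf were both far higher in the third deep cervical library than in the other 2.

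Mediastinal Hmox1 was 341.3 ± 95.7 CPM, apart from 115.4 ± 52.3 in the deep cervical node. Slc40a1 was 72.2 ± 30.3 CPM in the mediastinal node and 14.2 ± 5.54 in the ileal one, which did not overlap, and 2.23 ± 1.45 in the inguinal node at the low end. Slc11a1 was highest in the mediastinal (9.66 ± 2.65) and ileal (6.76 ± 2.11) nodes, whose libraries overlapped each other. On plain totals they stood above those of spleen and of the other 4 deeply sequenced sites. On TMM-adjusted totals mediastinal replicate 1 (4.45 CPM) and ileal replicates 1 and 3 (4.36 and 5.18 CPM) were below spleen replicate 2 (5.32 CPM). Mediastinal Spic was 52.5 ± 11.95 CPM against 14.3 ± 5.49 in the inguinal node. Vcam1 went from 237.0 ± 31.6 CPM in the mediastinal node to 128.4 ± 37.04 in the ileal and 51.8 ± 33.8 in the deep cervical node.

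The mediastinal libraries were also the deepest, with 41240156 to 69139450 counts. Deep cervical replicate 3 held 15808815 counts against 2854863 and 4847523 for the other 2. Mediastinal libraries carried 3287 to 3530 CPM of stromal and 1544 to 1692 CPM of endothelial marker genes, above every other site. The genes listed for red pulp macrophages, of which the C1q genes had the highest node means, summed to 1778 to 2723 CPM there. In the ileal node they summed to 2225 to 3585 CPM. The part of depth and of these cells in the mediastinal levels was not tested.

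**Figure D4:**
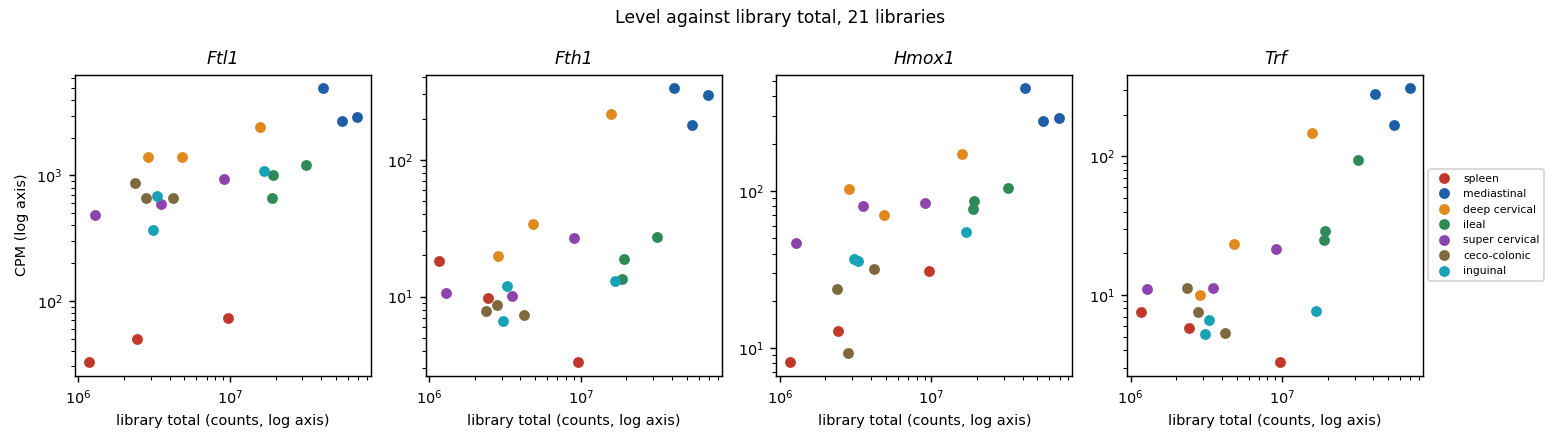
Level in CPM of Ftl1, Fth1, Hmox1 and Trf against the library total (both axes logarithmic) for the 3 spleen and 18 deeply sequenced node libraries, coloured by site. Spleen lies below node libraries of like depth for Ftl1, while the third deep cervical library (15808815 counts) lies near the mediastinal ones for Fth1 and Trf.

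Across the 18 node libraries the levels of several genes followed each other, as a description of libraries that share site and depth. Pearson's r of log2 CPM was 0.92 for Fth1 with Trf, 0.89 for Ftl1 with Fth1, 0.89 for Slc40a1 with Trf and 0.88 for Slc40a1 with Vcam1. Tfrc had r between -0.44 (with Spic) and 0.27 (with Slc11a1) with the other 8. Beyond the list, the genes most like each over the 21 libraries were Dhrs1 for Ftl1 (r = 0.978), Plau for Fth1 (0.908), Snx10 for Hmox1 (0.89), Tapbp for Slc40a1 (0.896) and Cd300a for Slc11a1 (0.771). They were Pirb for Spic (0.839), Tyrobp for Trf (0.933), Fstl1 for Tfrc (0.772) and Septin9 for Vcam1 (0.943).

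Other genes of the pathways gave a wider view of the same contrast, in which 34.4% of all tested genes were lower and 27.1% higher. The pathway and marker counts that follow are read against these shares, and a count near them is no result about its list. Haem breakdown was lower in spleen throughout: Hmox2, the constitutive haem oxygenase, by -2.71 ± 0.37, and the biliverdin reductases Blvra by -2.00 ± 0.35 and Blvrb by -1.35 ± 0.33. All 3 passed, and each was called under all 29 other settings. Of 7 tested genes of haem uptake and transport, 3 were lower and none higher, with a median of -0.90. Among them Hp, which binds free haemoglobin, was lower by -2.66 ± 0.65. Cd163, the receptor for haptoglobin with haemoglobin, stood at 0.70 ± 0.65 (adjusted p = 0.3533).

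Haem synthesis was split by enzyme. Alas1, the first enzyme outside the erythroid lineage, was lower by -3.53 ± 0.50, while its erythroid counterpart Alas2 was higher by 5.03 ± 0.39. Fech, which inserts the iron, was higher by 1.40 ± 0.25, Alad by 1.14 ± 0.37 and Cpox by 0.67 ± 0.28. The Cpox call was kept under 10 of 29 alternatives, with values from -0.24 to 0.80. Alad lost its call without spleen replicate 2 and with limma voom, and all 3 lost it with plain totals. In all, 3 of 8 tested were higher and 2 lower, and with plain totals none was higher and 3 were lower. The part of erythroid cells in these higher genes was not tested.

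In iron uptake, 4 of 7 tested genes were lower and 1 was higher. The higher one was Slc39a8, a zinc, manganese and iron importer, by 2.85 ± 0.30, called under all 29 other settings. Mcoln1, a lysosomal cation channel, was lower by -1.34 ± 0.38 and the ferric reductase Cybrd1 by -1.39 ± 0.55. The Cybrd1 call was lost without spleen replicate 1 or 2, with DESeq2's size factors in edgeR and with jejunal replicate 2 added, where values reached -0.16. In iron storage, the iron chaperones Pcbp1 and Pcbp2, which load ferritin, were lower by -3.37 ± 0.47 and -1.44 ± 0.37, and the ferritin cargo receptor Ncoa4 did not pass (-0.90 ± 0.53, adjusted p = 0.139). Of the ferroxidases that work with ferroportin only Cp was tested, at -0.27 ± 0.36 (adjusted p = 0.5228).

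Among 8 tested regulators 4 were lower and none higher. These were Fbxl5, which removes iron regulatory protein 2 when iron is plentiful (-2.49 ± 0.48), Bach1, the haem-sensing repressor of Hmox1 (-2.28 ± 0.44), Keap1 (-1.22 ± 0.31) and Nfe2l2 (-0.99 ± 0.39). The Nfe2l2 call was lost in 8 of 29 alternatives, each with 1 library left out, spleen replicates 1 and 3 among them. The iron regulatory proteins did not pass, with Aco1 at -0.65 ± 0.51 (adjusted p = 0.2703) and Ireb2 at 0.25 ± 0.24 (adjusted p = 0.3763). Hamp, Hamp2, Hjv, Bmp6, Tmprss6 and Erfe, the hepcidin axis, had 0 counts in all spleen libraries. Of these only Hjv passed the filter on low counts, at a node mean of 0.787 CPM on TMM-adjusted totals. The zeros are therefore not read as a trait of spleen. Of 7 mitochondrial genes 3 were lower, among them Iscu (-2.53 ± 0.40) and Slc25a28 (-2.40 ± 0.41).

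Marker genes of the cells that a pull-down could hold were read in the same contrast. All 8 tested erythroid genes were higher in spleen, with a median of 5.21, and remained so under every scaling. Of 9 tested red pulp macrophage genes 5 were lower and none higher, with a median of -1.66. C1qb (-3.87 ± 0.53), C1qc (-2.86 ± 0.42) and Hpgd (-2.62 ± 0.58) led the lower ones, and Cd5l, Clec4n and Adgre1 did not pass (0.69, 0.70 and 0.78). With DESeq2's size factors 1 was called higher. Summed over 11 genes, on plain totals, the list held 41.5 to 280.5 CPM in spleen and 294.6 to 3585 in the 18 node libraries. The gap between these ranges was narrow. TMM scaling raises spleen levels relative to plain totals, so the gap is not read as a separation of the groups. The C1q genes had the highest node means of the list, so the sum mostly follows them.

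Of 8 tested marginal zone and sinus macrophage genes 6 were lower and none higher, with a median of -2.14. Lyve1 (-4.09 ± 0.79), Cd209b (-3.36 ± 0.57) and Timd4 (-2.51 ± 0.46) were among them, and Marco was not (-0.10 ± 0.49, adjusted p = 0.8727). The sum of the list was 142.8 to 2028 CPM in spleen and 918.9 to 8760 in the nodes. Marco was the largest part of it, at 117.5 to 1908 and 646.5 to 7820 CPM. Rpl22, the gene that carries the tag, was lower by -1.67 ± 0.35 (adjusted p = 0.0002706). Counts per gene do not separate its tagged from its untagged copy, so this is no measure of tagged cells. The part of macrophage content in the lower Ftl1, Hmox1 and Trf was not tested.

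Stromal genes were mostly lower (6 lower and 2 higher of 10, median -1.85), as were endothelial genes (5 lower and 2 higher of 9, median -1.49). Of 5 tested neutrophil genes 4 were higher, with a median of 4.25. All 7 tested genes of dividing cells were higher, but only 2 with plain totals, and without spleen replicate 2 there were 2 higher and 1 lower. Genes driven by Nfe2l2 gave 1 higher and 2 lower of 6. No hepatocyte gene passed the filter, and the 7 listed summed to at most 5.98 CPM in spleen.

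The shallow sites gave few counts of these genes. Under 3 counts were found for Slc11a1 in all 15 libraries, for Slc40a1 and Tfrc in 14, for Hmox1 in 12, for Spic in 11, for Trf in 7, for Fth1 in 4 and for Vcam1 in 2. Ftl1 reached 3 counts in all 15, at 11.7 to 146.9 CPM with a median of 37.5. The 3 spleen libraries, at 32.6 to 72.9 CPM, lay inside that range on plain totals. With the ribosomal features left out of the totals, the shallow libraries ran from 64.3 to 517.5 CPM of Ftl1 and spleen from 56.8 to 77.1, and 13 of the 15 lay above every spleen library.

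With all 11 node sites in the fit, Tfrc was higher in spleen (4.87 ± 0.65, adjusted p = 5.767e-08), as were Slc40a1 (2.62 ± 0.60, adjusted p = 0.0005679) and Slc11a1 (2.46 ± 0.95, adjusted p = 0.0439). Ftl1 was lower (-1.62 ± 0.55, adjusted p = 0.01953). Over all 16294 genes 26% were higher and 2.94% lower, and the median of all genes was 0.77. Because the shallow libraries hold almost no counts of Tfrc, Slc40a1 or Slc11a1, the sizes of those 3 changes rest on the model rather than on reads. Scaling decided much here: the median of all genes was -0.52 with DESeq2's size factors in edgeR, -0.93 with DESeq2 and 0.05 with plain totals. Tfrc was called under all 43 other settings and Ftl1 under 40. Slc40a1 was called under 39, and Slc11a1 under only 10. Ftl1 lost its call without spleen replicate 1 (-1.74, adjusted p = 0.06065), without spleen replicate 3 (-1.43, adjusted p = 0.1035) and with no filter (-1.66, adjusted p = 0.06949).

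The isotype control shows what an unspecific antibody carries down from the jejunal node. It held 5002926 counts, for a floor of 0.6 CPM, and has no replicate. Hmox1 and Slc11a1 had 0 counts in it, and jejunal replicate 2, the deepest jejunal library, had 11.7 CPM of Hmox1, at least 19.6-fold higher than the floor of 3 counts. Spic was at 0.977 CPM on 4.89 counts, against 8.43 and 10.4 CPM in jejunal replicates 1 and 2. Ftl1 was at 34.3 CPM against 69.4, 146.9 and 49.0 in the 3 jejunal libraries, so the pull-downs were 1.43 to 4.28 times the control on plain totals. Without the ribosomal features, which took 15.5% to 60.3% of the jejunal and 6.5% of the isotype counts, the values were 130.4, 173.9 and 123.4 CPM against 36.7. Vcam1 was at 32.7 CPM against 10.04, 33.0 and 13.6, and without the ribosomal features at 34.9 against 18.9, 39.0 and 34.4 CPM. Fth1, Trf and Tfrc were at 6.37, 3.91 and 2.74 CPM in the control, on 31.9, 19.6 and 13.7 counts. In spleen, set beside these control levels, Hmox1, Spic and Tfrc stood above the control in all 3 libraries, and Slc40a1 in replicates 1 and 2. For Tfrc in replicate 3 the margin was within counting error, at 3.83 CPM on 4.46 counts against 2.74 in the control. For Vcam1 all 3 spleen libraries were below the control, and for Fth1 and Trf replicate 2 was.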

How the data were processed

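RNA from tagged-ribosome pull-downs was measured in 36 libraries and 1 isotype control. The submitters' processing notes name kallisto, limma and edgeR, with no role, and list both GRCm39 and mm10, so no genome coordinates are given. Values were deposited as estimated counts per gene, unscaled between libraries as far as the totals show. Of them 32.77% were not whole and were rounded for tests. kallisto shares reads among near-identical transcripts, so ferritin copies are uncertain, and use of strand is not given in the sources used here. Totals ran from 221911 to 69139450.

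Tests used edgeR 4.0.16 in R 4.3.3: filterByExpr (minimum count 10, minimum total 15), TMM, robust quasi-likelihood fit, 1 mean per group, Benjamini-Hochberg over all tested genes, threshold 0.05. SEs were back-calculated from fold changes and F statistics. The 6 sites used were those whose libraries all held at least 1000000 counts. Alternatives used DESeq2 1.42.0 and limma 3.58.1, other scalings and filters, and left-out libraries. Scripts were tested on simulated data. Pairs of replicates differed beyond counting noise, with chi-square values of 13.17 to 220.7 per degree of freedom. Likeness is Pearson's r of log2 CPM (prior count 2) among genes averaging at least 10 CPM, without predicted genes, and the nearest of 3 is named. The 9 genes are always named. From each list up to 4 genes past the threshold, with at least 10 CPM on the higher side, are named, and others only as not passing, apart from check genes. The genes and 19 lists were chosen with earlier results of these data known. Transcript sequences are from GENCODE M21. A result that the naming rule would take is not reported here.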

Additional observations from a re-analysis of the deposited data

How the results depend on the processing

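Of the calls against 6 sites, Ftl1 and Hmox1 held under all 29 alternatives, Slc40a1 under 25, Trf under 27 and Tfrc under 28. Counts of called genes were 9354 to 11453 with a library left out (10381 with all). Against 11 sites they were 3418 to 5041 (4711 with all, 4232 higher and 479 lower). They moved to 2608 (941 higher, 1667 lower) with DESeq2's size factors in edgeR, to 7085 (1202 higher, 5883 lower) with DESeq2 and to 2987 (2025 higher, 962 lower) with plain totals. limma voom gave 3229 higher and 3118 lower. Among sites 8565 to 12220 genes were called with a library left out (10285 with all). Against 11 sites, Hmox1 changed sign from 1.19 to -0.12 with DESeq2's size factors in edgeR and to -0.63 with DESeq2. Spic went from 0.71 to -0.55 and -0.56, and Vcam1 went from -0.23 to 0.15 without spleen replicate 3 and to -0.65 without spleen replicate 2. None of these sign changes passed the threshold, and the cause was not tested. Calls lower in spleen were gained against 11 sites with DESeq2. These were Fth1 (-1.74, adjusted p = 0.01303), Trf (-2.33, adjusted p = 0.005246) and Vcam1 (-1.58, adjusted p = 0.009453). Trf also gained one with DESeq2's size factors in edgeR (-2.40, adjusted p = 0.03225). The Ftl1 to Fth1 difference was -2.85 with 6 site means as units (adjusted p = 0.09524, exact permutation test, fewer units) and ran from -3.80 to -2.00 with a library left out. For Tfrc to Fth1 it ran from 0.71 to 3.34. With the replicate number as a block, 10259 genes were called against 6 sites, 4574 against 11 and 10465 among sites, and of the 9 genes only Slc11a1 against 11 sites lost its call (adjusted p = 0.05014). The labels do not say that a number marks an animal. Same-numbered libraries had correlations of deviations from -0.372 to 0.479, with a mean of 0.051 against -0.025 for other numbers. Of 21 libraries 13 correlated best with their own number, out of 3 numbers. Whether the number carries a shared effect was not tested. The main fits used no pairing because the labels give none. The 0-count floors and shallow libraries limit every value of Slc11a1, Slc40a1 and Tfrc outside the 21 deeper libraries.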
